A study of Homo sapiens with 10 samples.

Results

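NR4A1, NR4A2 and NR4A3 are the 3 genes of the NR4A group of orphan nuclear receptors. They were taken by symbol from a table of 20379 human genes, and each was found once. RNA from DBTRG-05MG and U87, both established human glioblastoma cell lines, was sequenced as poly(A) libraries after exposure to dibutyryl cAMP, a cell-permeable analog of the second messenger cAMP. Treated cells of each line were given 1 mM of the compound for 6, 12, 24 or 48 h, and each treated time was set against the 0 h library of the same line. Each line and time has 1 library, 10 in all, so no level has a replicate error. No untreated library of a later time was analysed here, so the compound and the time in culture cannot be told apart. Dose and times are those of the sample labels, from which the series text departs in both. All 3 genes had a mean of at least 1 FPKM (fragments counted per unit of transcript length and of library size), the level set for testing, as did 12352 genes of the table. NR4A2, with a mean of 4.38 FPKM, and NR4A3, with 1.42 FPKM, were below 1 FPKM at 0 h in both lines, so that they passed through their treated libraries.

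NR4A proteins are transcription factors whose ligand-binding pocket is filled by bulky side chains, so that they act without a classical hormone and their activity follows their amount and modification. Their genes are immediate early genes: cAMP activates protein kinase A, the kinase phosphorylates CREB, and CREB bound to cAMP response elements switches the NR4A genes on within minutes to hours. NR4A1 is also called Nur77, NR4A2 is Nurr1, which midbrain dopamine neurons need in order to form, and NR4A3 is NOR-1. All bind the NGFI-B response element as monomers, and NR4A1 and NR4A2 can also pair with the retinoid X receptors.

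On GRCh38 with the GENCODE release 29 annotation, NR4A1 (ENSG00000123358) lies on the plus strand of chromosome 12 from 52022832 to 52059507. It has 13 protein-coding transcripts with 10 different starts. NR4A2 (ENSG00000153234) lies on the minus strand of chromosome 2 from 156324432 to 156342348 and has 8 protein-coding transcripts. NR4A3 (ENSG00000119508) lies on the plus strand of chromosome 9 from 99821855 to 99866891 and has 4. The last part of NR4A1 is overlapped by the antisense lincRNA AC025259.3, from 52058459 to 52059503 on the minus strand. The library protocol states no strand selection, so reads of that RNA and of NR4A1 cannot be told apart.

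The NR4A3 promoter is shown because NR4A3 was the member with the largest ratio to 0 h in each line at 6 h and cAMP response elements are the known route from cAMP to this gene family. The window is 300 bases from RefSeq (GRCh38.p14), from 250 bases before the start site to 50 after it, at chr9:99821635-99821934 on the plus strand, written 5′ to 3′. Its RefSeq start site, 99821885, from which the offsets are counted, lies 30 bases downstream of the first GENCODE start. Capitals mark every match of the cAMP response element half-site TGACG on either strand, with CGTCA being the half-site read on the minus strand.
NR4A3: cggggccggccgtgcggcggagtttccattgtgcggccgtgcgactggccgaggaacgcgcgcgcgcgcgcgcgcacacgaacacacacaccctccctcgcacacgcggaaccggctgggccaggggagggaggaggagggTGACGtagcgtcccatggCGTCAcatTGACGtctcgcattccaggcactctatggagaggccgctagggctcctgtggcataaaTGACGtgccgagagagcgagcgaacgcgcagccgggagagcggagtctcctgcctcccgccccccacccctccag
The window held 4 half-sites. Taken 5′ to 3′ on their own strand, the 8 bases that begin with each were TGACGTAG at -109 from the start site, TGACGCCA on the minus strand at -91, TGACGTCT at -83 and TGACGTGC at -25. Each offset gives the leftmost base of the half-site as written on the plus strand. The full palindrome TGACGTCA, the form CREB binds most tightly, was not among these letters, nor was the NGFI-B response element AAAGGTCA. Of 35116 RefSeq promoter windows of the same length, 24.6% held at least 1 half-site and 0.313% held at least 4. The longer half-site TGACGT, which overlaps TGACG, was present 3 times, and 0.276% of windows held at least 3. The palindrome was present in 1.85% of windows and AAAGGTCA in 1.22%. The 2 windows given for NR4A1 lie at upstream starts of the gene and held no match to any of these motifs, and the start at 52051402 was not covered. No window was given for NR4A2, so its promoter was not examined. Such matches describe letters in a window and were not tested as binding sites.

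From 6 to 24 h of dibutyryl cAMP the highest NR4A gene was NR4A1 in DBTRG-05MG and NR4A2 in U87. At 0 and 48 h it was NR4A1 in both lines. NR4A3 was highest at 6 h in both lines and stayed below 4 FPKM. NR4A2 and NR4A3 were above 0 h in all 8 treated libraries, whereas NR4A1 was above 0 h in 4 of 4 treated DBTRG-05MG libraries and in 2 of 4 treated U87 libraries. In bulk RNA such as this, fewer cells of a kind and less RNA per cell cannot be told apart.

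**Figure D1:**
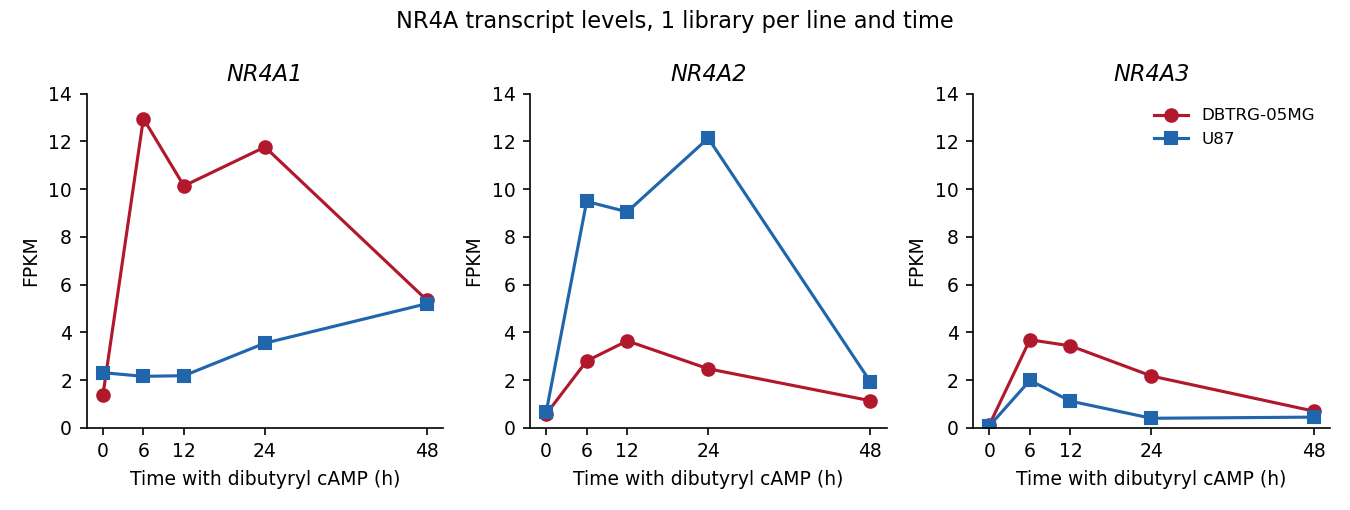
Level of each NR4A gene in FPKM (y axis) against hours of dibutyryl cAMP (x axis), with 1 library per point, DBTRG-05MG as circles and U87 as squares. NR4A1 reached 12.95 FPKM in DBTRG-05MG at 6 h and NR4A2 reached 12.1 FPKM in U87 at 24 h.

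NR4A1, the receptor first cloned as a gene induced by nerve growth factor, stood at 1.36, 12.95, 10.1, 11.8 and 5.34 FPKM in DBTRG-05MG at 0, 6, 12, 24 and 48 h. In U87 it stood at 2.31, 2.16, 2.18, 3.55 and 5.20 FPKM at the same times. The 3 DBTRG-05MG libraries from 6 to 24 h were the highest and lay close together, and U87 was at its 0 h level until 12 h and highest at 48 h. Relative to 0 h, NR4A1 was 9.54-fold at 6 h and 3.93-fold at 48 h in DBTRG-05MG, and 0.934-fold at 6 h and 2.25-fold at 48 h in U87. On the log2(FPKM + 1) scale, on which all differences below are given, the 6 h change was 2.57 in DBTRG-05MG and -0.07 in U87. The DBTRG-05MG value ranked 10th highest of 12352 genes tested in that line, and the U87 value ranked 6970th. At 48 h the lines were 1.03-fold apart.

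NR4A2 stood at 0.575, 2.80, 3.64, 2.47 and 1.14 FPKM in DBTRG-05MG at 0, 6, 12, 24 and 48 h. In U87 it stood at 0.643, 9.48, 9.05, 12.1 and 1.93 FPKM. The lines began within 1.12-fold of each other, and U87 was higher at every time, by 3.39-fold at 6 h and 4.90-fold at 24 h. The ratio to 0 h was highest at 12 h in DBTRG-05MG, at 6.34-fold, and at 24 h in U87, at 18.9-fold. The U87 change at 24 h, 3.00, ranked 5th highest of the genes tested in that line. NR4A2 passed the filter through its treated libraries, so a high rank was favored in advance. By 48 h the level was 31.2% of the peak in DBTRG-05MG and 15.9% of the peak in U87, still 1.98-fold and 3.01-fold the 0 h level.

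NR4A3 stood at 0.125, 3.69, 3.43, 2.17 and 0.703 FPKM in DBTRG-05MG at 0, 6, 12, 24 and 48 h. In U87 it stood at 0.0782, 1.99, 1.12, 0.400 and 0.448 FPKM. Both lines were highest at 6 h, and the level was lower at each later time in DBTRG-05MG and at 12 and 24 h in U87. At 24 h the DBTRG-05MG level was 5.42-fold the U87 level, the widest gap between the lines for this gene. The ratios to 0 h at 6 h, 29.5-fold in DBTRG-05MG and 25.4-fold in U87, rest on very low baselines. An approximate depth of 9.96 M fragments, a pooled value, was used for every library, since the depth of each was not estimated. With it, the 0 h values stand for about 5.5 fragments in DBTRG-05MG and about 3.4 in U87. From the shortest transcript at the lower quartile of depth to the longest at the upper, they run over 3.0 to 7.4 and 1.9 to 4.6. The pseudocount of 1 FPKM shrinks these ratios to changes of 2.06 in DBTRG-05MG and 1.47 in U87.

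The order of the levels was read against the pooled SD of each gene on the log2 scale, which is the disagreement between the lines and equals 0.58 for NR4A1, 0.41 for NR4A2 and 0.31 for NR4A3. For NR4A1 in DBTRG-05MG, 6, 24 and 12 h differed by less than that SD from their neighbours in the order, and 48 and 0 h stood further apart. For NR4A1 in U87 every step in the order was smaller than the SD. For NR4A2, 12, 6 and 24 h in DBTRG-05MG and 24, 6 and 12 h in U87 lay within the SD of their neighbours, and the steps down to 48 h and on to 0 h were larger. For NR4A3 the steps below the SD were 6 to 12 h in DBTRG-05MG, and 48 to 24 h in U87.

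Summed over the 3 genes, FPKM was 2.06, 19.4, 17.2, 16.4 and 7.18 in DBTRG-05MG at 0, 6, 12, 24 and 48 h, and 3.03, 13.6, 12.35, 16.1 and 7.58 in U87. The sums of both lines were lowest at 0 h and, among the treated times, at 48 h. In DBTRG-05MG NR4A1 made up 58.9 to 74.4% of the sum at every time, 0 h included. In U87 NR4A1 held 76.2% of the sum at 0 h and 15.8, 17.7 and 22.1% at 6, 12 and 24 h, when NR4A2 held 69.6, 73.2 and 75.5%. At 48 h NR4A1 again led in U87, with 68.6%, and NR4A2 held 25.5%. The share of NR4A3 was highest at 12 h in DBTRG-05MG, at 19.9%, and at 6 h in U87, at 14.6%.

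**Figure D2:**
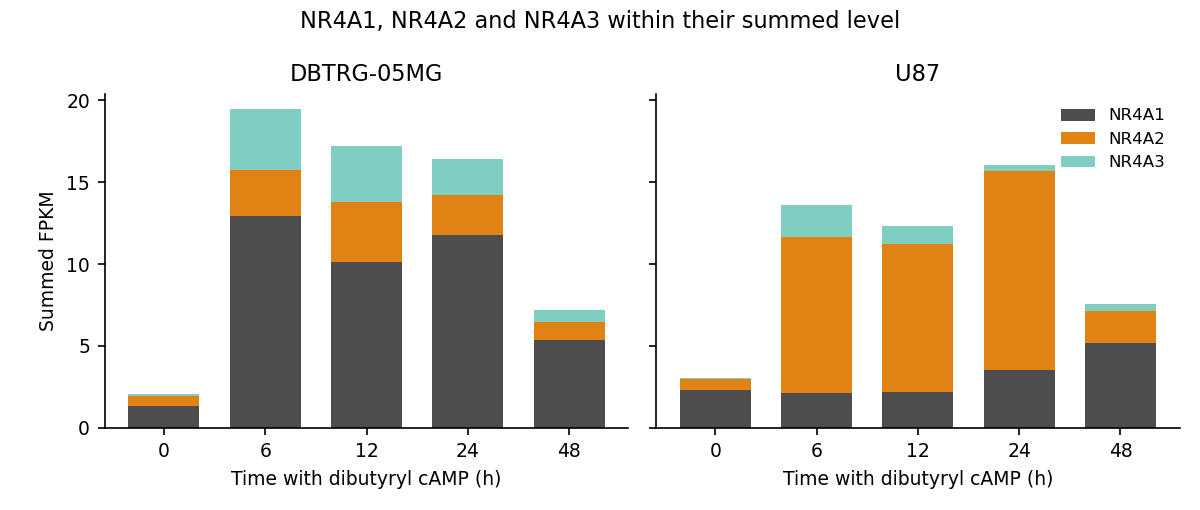
Summed FPKM of the 3 NR4A genes (y axis) at each time of dibutyryl cAMP (x axis), split by gene, 1 library per bar. NR4A1 is the largest block in every DBTRG-05MG bar, and NR4A2 is the largest in the U87 bars at 6, 12 and 24 h.

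No NR4A gene passed the test of a change with time. An unadjusted p under 0.05 was reached by NR4A2 and NR4A3 at 6 and 12 h, by all 3 genes at 24 h and by none at 48 h, and by 5.31, 4.47, 3.51 and 12.2% of all genes at 6, 12, 24 and 48 h. Changes averaged over both lines were tested with limma (a linear model with variance shared across genes) with the line as a block, and p was adjusted over all 12352 genes. At 6 h the change was 1.25 ± 0.58 for NR4A1 (SE, adjusted p = 0.937), 1.97 ± 0.41 for NR4A2 (adjusted p = 0.527) and 1.76 ± 0.31 for NR4A3 (adjusted p = 0.227). At that time 0.0081% of genes passed, a single gene, IL11, and the same share passed at 12 and 24 h. At 12 h the change was 1.09 for NR4A1, 2.09 for NR4A2 and 1.48 for NR4A3, with adjusted p by limma of 0.984, 0.557 and 0.557. At 24 h it was 1.45 for NR4A1, 2.07 for NR4A2 and 0.94 for NR4A3, with adjusted p of 1.00, 0.609 and 1.00. At 48 h 0.0% of genes passed by limma, whereas 1512 had an unadjusted p under 0.05, and the changes were 1.17 for NR4A1, 0.64 for NR4A2 and 0.51 for NR4A3. With a library left out these 48 h changes were as low as 0.24, 0.05 and 0.15. In these fits the spread is the disagreement between the lines. A gene that is above 0 h in 1 line alone, as NR4A1 was at 6 h, therefore has a wide error. In simulated data with real means and spread, the 6 h test recovered 20% of genes changed by 1 log2 unit and 76% of those changed by 2. The simulated noise was normal and independent, with 50 genes changed at each size. The median SD of all genes was 0.27, below the pooled SD of each NR4A gene. These shares therefore do not tell how often a change of an NR4A gene would be found. The counts of directions stand beside a background of 2.55% of genes above 0 h in all 8 treated libraries, which NR4A2 and NR4A3 were. Both genes passed the filter through their treated libraries, so this outcome was nearly given in advance and is no support for a change. The 4 treated libraries of a line also share a single 0 h library. NR4A1 was above 0 h at all 4 treated times in DBTRG-05MG, as were 18.8% of genes, and not in U87, where 9.35% of genes were.

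Averaged over the 5 times, all 3 genes differed between the lines by limma. The spread behind these p-values is the scatter of the difference over the 5 times, which the labels do not give as independent cultures. At 0 h alone DBTRG-05MG stood at 0.59-fold the U87 level for NR4A1, 0.89-fold for NR4A2 and 1.60-fold for NR4A3. The higher NR4A1 average in DBTRG-05MG thus rests on treated libraries. NR4A1 was higher in DBTRG-05MG by 1.00 ± 0.37 (SE, adjusted p = 0.0456), NR4A2 was lower there, with -1.0 ± 0.26 (adjusted p = 0.0097) and NR4A3 was higher there by 0.64 ± 0.20 (adjusted p = 0.0210). This stands against 55.0% of all genes that differed between the lines by the same rule, 35.2% higher and 19.7% lower in DBTRG-05MG. The share of higher calls depended on scaling: 64.1% of the calls were higher in DBTRG-05MG as deposited and 45.6% after each library was centred on its median, which moved the median difference of all genes to -0.09 from 0.18. With that scaling NR4A1 (0.73, adjusted p = 0.139) and NR4A3 (0.37, adjusted p = 0.122) no longer passed and kept their direction, and NR4A2 passed. With time left out of the fit none of the line differences passed by limma (adjusted p = 0.0626 for NR4A1, 0.131 for NR4A2 and 0.190 for NR4A3). Leaving out the 6, 12 or 24 h library of either line ended the NR4A1 call (adjusted p up to 0.145), and leaving out the 12 or 24 h library of either line ended the NR4A3 call (adjusted p up to 0.0829). The lines did not differ detectably in a straight trend over the order of times, with 0.04 for NR4A1, -0.12 for NR4A2 and 0.09 for NR4A3 (adjusted p by limma 0.910 to 0.962), where 0.0162% of genes passed. A straight trend is a poor measure of levels that peak in between. Treated minus 0 h, compared between the lines in a fit chosen after seeing the data, gave 1.86 ± 0.66 for NR4A1 (SE, adjusted p by limma 0.999), -1.18 ± 0.96 for NR4A2 and 0.72 ± 0.77 for NR4A3.

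Nuclear receptors, the superfamily of ligand-regulated factors to which the NR4A genes belong, had few genes as far from 0 h. Of its 48 genes 27 were tested, and none passed limma at any time. At 6 h 7 had an unadjusted p under 0.05, NR4A2 and NR4A3 among them, as did 5.31% of all genes. At 6 h the receptors at least 2-fold above 0 h were NR4A1, NR4A2 and NR4A3 in DBTRG-05MG, where 1.17% of all genes were that far above. In U87 they were NR4A2, NR4A3 and the glucocorticoid receptor gene NR3C1, against 2.73% of all genes. Those in both lines were NR4A2 and NR4A3, against 0.316% of all genes. Both genes passed the filter through their treated libraries, which favors a place far above 0 h. Their presence in these counts, here and at later times, is therefore no support for a change. At 12 and 24 h all 3 NR4A genes were at least 2-fold above 0 h in DBTRG-05MG, against 2.47% of all genes at 12 h and 3.18% at 24 h. In U87 NR4A2 was the one receptor so far above at these times, against 2.61% of all genes at 12 h and 2.15% at 24 h. At 48 h NR4A1 was the one receptor in DBTRG-05MG (4.57% of all genes), and in U87 it was NR1D1, a repressor of the circadian clock (2.14% of all genes). The median change of the 27 receptors at 6 h was -0.28 in DBTRG-05MG and -0.11 in U87, beside -0.07 and -0.01 for all genes tested.

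**Figure D3:**
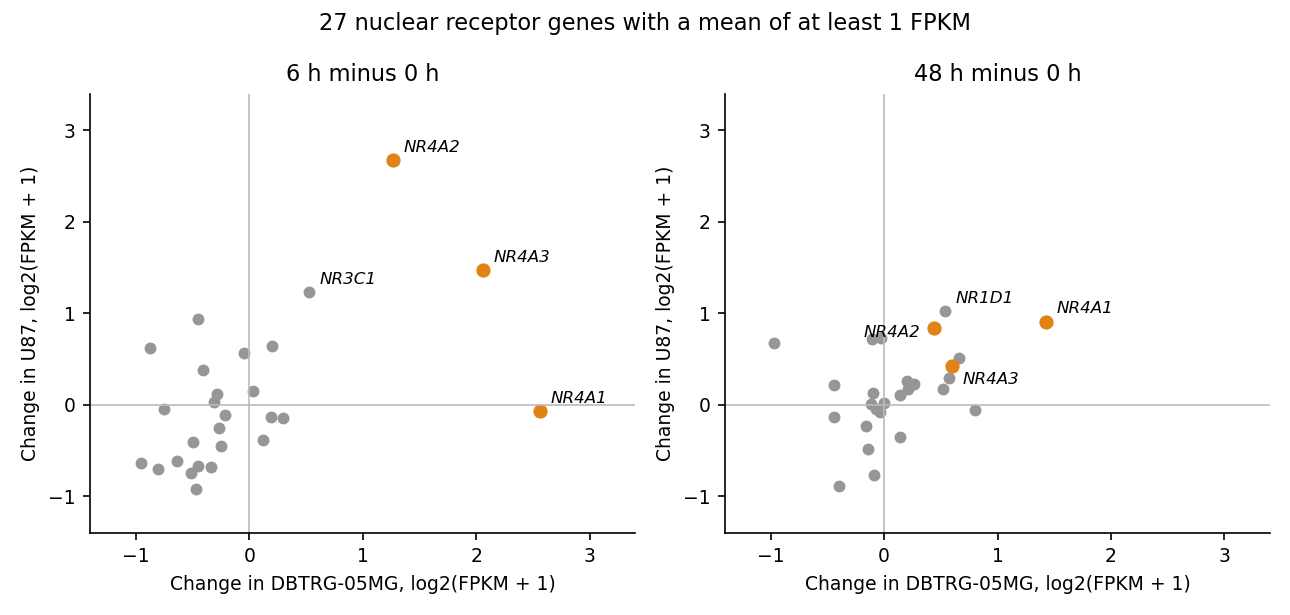
Change from 0 h on the log2(FPKM + 1) scale in DBTRG-05MG (x axis) and U87 (y axis) for the 27 nuclear receptor genes tested, at 6 h (left) and 48 h (right), with NR4A genes in orange. At 6 h NR4A2 and NR4A3 lie above 1 on both axes and NR4A1 above 1 on the DBTRG-05MG axis alone.

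Levels within the superfamily were ranked by FPKM, which is per length. NR4A1 ranked 24th of 48 in DBTRG-05MG at 0 h, 9th at 6 h, 13th at 12 h, 14th at 24 h and 20th at 48 h, and in U87 it ranked between 16th and 21st throughout. NR4A2 in U87 ranked 24th at 0 h, 11th at 6 h, 13th at 12 h, 11th at 24 h and 23rd at 48 h. NR4A3 ranked 40th in DBTRG-05MG at 0 h and 20th at 6 h. The receptors with the highest mean levels were NR1D1 at 67.3 FPKM, the oxysterol receptor gene NR1H2 at 53.3 FPKM and the orphan receptor gene NR2F6 at 35.4 FPKM.

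Genes upstream of the NR4A group, from protein kinase A to CREB and its coactivators, had a median change of 0.003 in DBTRG-05MG at 6 h, beside 0.037 in U87. Of 34 tested, none passed limma at any time (4 had an unadjusted p under 0.05 at 6 h, as did 5.31% of all genes). At 6 h CREM and SIK1 were at least 2-fold above 0 h in DBTRG-05MG, as were 1.17% of all genes. RPS6KA1 was at least 2-fold below in U87, as were 2.43% of all genes. No gene of the list was 2-fold off in the same direction in both lines, where 0.316% of all genes were that far above and 0.17% that far below. CREB1, the factor that binds cAMP response elements, stayed between 3.59 and 5.77 FPKM over all libraries. CREM, whose cAMP-induced forms repress CREB targets, stood at 2.05, 8.72, 6.53, 7.30 and 5.89 FPKM in DBTRG-05MG from 0 to 48 h, and U87 had 2.57, 4.22, 3.38, 3.10 and 2.81 FPKM. SIK1, a kinase that holds the CREB coactivators in the cytoplasm, stood at 18.5, 92.0, 75.2, 67.5 and 44.9 FPKM in DBTRG-05MG, and U87 had 3.65, 8.22, 6.38, 3.47 and 7.61 FPKM. At 6 h CREM differed from 0 h by 1.67 in DBTRG-05MG and 0.55 in U87, and SIK1 by 2.25 and 0.99. Both were thus above 0 h in both lines, whereas NR4A1 was so in DBTRG-05MG alone. The coactivator genes CRTC1, CRTC2 and CRTC3 differed from 0 h by 0.14, -0.03 and -0.09 at 6 h in DBTRG-05MG and by 0.75, -0.78 and -0.34 in U87.

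Partners and corepressors of NR4A proteins had a median change of -0.10 at 6 h in DBTRG-05MG, beside -0.17 in U87. Of 26 tested, none passed limma at any time (2 had an unadjusted p under 0.05 at 6 h, as did 5.31% of all genes). None was 2-fold off in the same direction in both lines at 6 h, where 0.316% of all genes were that far above and 0.17% that far below. RXRA, the retinoid X receptor gene that could pair with NR4A1 and NR4A2, stood at 18.4, 15.3, 15.8, 18.8 and 18.3 FPKM in DBTRG-05MG from 0 to 48 h, and U87 had 11.2, 7.95, 11.1, 11.4 and 11.3 FPKM. RXRB ranged from 1.39 to 2.40 FPKM over all libraries, and RXRG was listed above 0 in 1 library, at 0.0812 FPKM in DBTRG-05MG at 6 h. The levels of the partner RXRA were thus above those of NR4A1 and NR4A2 in every DBTRG-05MG library, and in U87 in every library except those in which NR4A2 was at 9.48 and 12.1 FPKM.

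Other immediate early genes were compared in the same way. Of 43 tested, none passed limma at any time and 9 had an unadjusted p under 0.05 at 6 h, as did 5.31% of all genes. At that time 8 were at least 2-fold above 0 h in DBTRG-05MG (1.17% of all genes) and 6 in U87 (2.73% of all genes), and the phosphatase gene DUSP1 was the one gene in both sets (0.316% of all genes). In DBTRG-05MG these were ATF3, CSRNP1, DUSP1, EGR1, FOS, FOSB, IER2 and JUNB, with none 2-fold below, where 0.81% of all genes were. In U87 they were CTGF, CYR61, DUSP1, PTGS2, RHOB and SGK1, with 6 others at least 2-fold below, where 2.43% of all genes were. EGR1, a zinc finger factor gene induced through MAP kinases, differed from 0 h by 1.43 at 6 h in DBTRG-05MG, beside 0.20 in U87. That was the same side as NR4A1 at 6 h alone. At 24 h EGR1 was at least 2-fold above 0 h in both lines (3.18% of all genes in DBTRG-05MG, 2.15% in U87). It was then at 64.9 against 25.4 FPKM in DBTRG-05MG and at 32.5 against 8.47 FPKM in U87. PTGS2, which encodes cyclooxygenase-2, differed from 0 h at 6 h by 0.27 in DBTRG-05MG and 2.33 in U87. In DBTRG-05MG it was at most 0.415 FPKM, where the pseudocount shrinks any change. In U87 it was highest at 48 h, at 162.2 FPKM, when NR4A2 was at 1.93 FPKM. CTGF, a matrix-associated growth factor gene, differed from 0 h by 0.49 in DBTRG-05MG and 2.08 in U87 at 6 h. For DUSP1 the values were 3.30 in DBTRG-05MG and 1.34 in U87. The median change of the list was 0.33 in DBTRG-05MG and 0.09 in U87, beside -0.07 and -0.01 for all genes.

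Known targets of cAMP and CREB were taken as a list without the NR4A genes. Of 35 tested, 16 were at least 2-fold above 0 h at 6 h in DBTRG-05MG, 11 in U87 and 6 in both, beside 1.17, 2.73 and 0.316% of all genes. None passed limma at any time, and 15 had an unadjusted p under 0.05 at 6 h, as did 5.31% of all genes. The 6 were BDNF, DIO2, DUSP1, IL6, PDE4B and PDE4D. The deiodinase gene DIO2 differed from 0 h by 2.46 in DBTRG-05MG and 5.06 in U87, and the cytokine gene IL6 by 2.41 and 2.61. The phosphodiesterase genes that break down cAMP had 2.05 in DBTRG-05MG and 2.13 in U87 for PDE4B, and 1.38 and 1.78 for PDE4D. The list's median was 0.86 in DBTRG-05MG and 0.60 in U87. The NR4A2 and NR4A3 changes of 1.27 to 2.67 lay above that median in both lines. Both genes passed the filter through their treated libraries, which favors such a place. NR4A1 lay above the list's median in DBTRG-05MG and below it in U87.

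Genes reported elsewhere as targets of NR4A receptors, many of them from dopamine neurons, steroid-producing cells, muscle or vessels, had a median change of -0.08 in DBTRG-05MG at 6 h, beside 0.03 in U87. Of 51 in the table, 23 were under 1 FPKM in every library and 21 were tested. None passed limma at any time, and 1 had an unadjusted p under 0.05 at 6 h, as did 5.31% of all genes. At 6 h IL8 (CXCL8), a chemokine gene, was the one at least 2-fold above 0 h, in U87, where it differed from 0 h by 2.29, beside 0.70 in DBTRG-05MG. At 24 h, when NR4A2 in U87 was at its highest, the median of the list was -0.28 in DBTRG-05MG and -0.18 in U87, beside 0.04 and -0.15 for all genes.

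The genes whose pattern was most like that of each NR4A gene were ranked by Pearson's r over the 10 libraries after the mean of the line was subtracted, among 12351 other genes. The libraries of a line share cells and a single 0 h library, so r is a description. For NR4A1 the highest were JUP (r = 0.93), TWIST2 (0.91), IFNL2 (0.90), PIK3CD (0.88) and DUSP5 (0.88). The likeness to JUP, TWIST2 and IFNL2 comes from DBTRG-05MG alone, since JUP was at most 0.278 FPKM in U87 and the other pair were listed at 0 there. PIK3CD, a phosphoinositide kinase gene, and DUSP5, a nuclear ERK phosphatase gene, followed NR4A1 in both lines, with r over 5 libraries of 0.94 and 0.95 in DBTRG-05MG, and of 0.85 and 0.81 in U87.

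For NR4A2 the highest were ID3 (r = 0.97), IL6 (0.96), HGSNAT (0.95), IL11 (0.94) and CREB3L2 (0.94). IL11, a cytokine of the IL-6 family and the gene that passed limma at 6 h (4.78, adjusted p = 0.0173), stood at 8.82, 269.9, 262.2, 119.4 and 46.9 FPKM in DBTRG-05MG from 0 to 48 h, and U87 had 5.90, 187.1, 337.2, 329.1 and 49.3 FPKM. Its U87 course, high from 6 to 24 h and lower at 48 h, has the shape of that of NR4A2. IL6 stood at 13.6, 87.8, 114.6, 197.8 and 30.5 FPKM in U87, highest at 24 h as NR4A2 was.

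For NR4A3 the highest were ETV3 (r = 0.98), PCDH17 (0.95), MAFK (0.93), GOSR2 (0.92) and ZKSCAN2 (0.92). MAFK, a small MAF transcription factor gene, stood at 12.2, 48.3, 42.5, 42.3 and 28.0 FPKM in DBTRG-05MG, and U87 had 9.64, 42.0, 23.4, 15.2 and 12.4 FPKM, with its peak at 6 h in both. ETV3, an ETS repressor gene, differed less from 0 h, by 0.60 in DBTRG-05MG and 0.46 in U87 at 6 h. Among the NR4A genes themselves, r was 0.68 for NR4A2 with NR4A3, 0.65 for NR4A1 with NR4A3 and 0.30 for NR4A1 with NR4A2. In DBTRG-05MG alone the 3 pairs had r of 0.92 to 0.98 over 5 libraries. In U87 NR4A2 with NR4A3 had 0.67, and NR4A1 had -0.20 with NR4A2 and -0.41 with NR4A3.

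**Figure D4:**
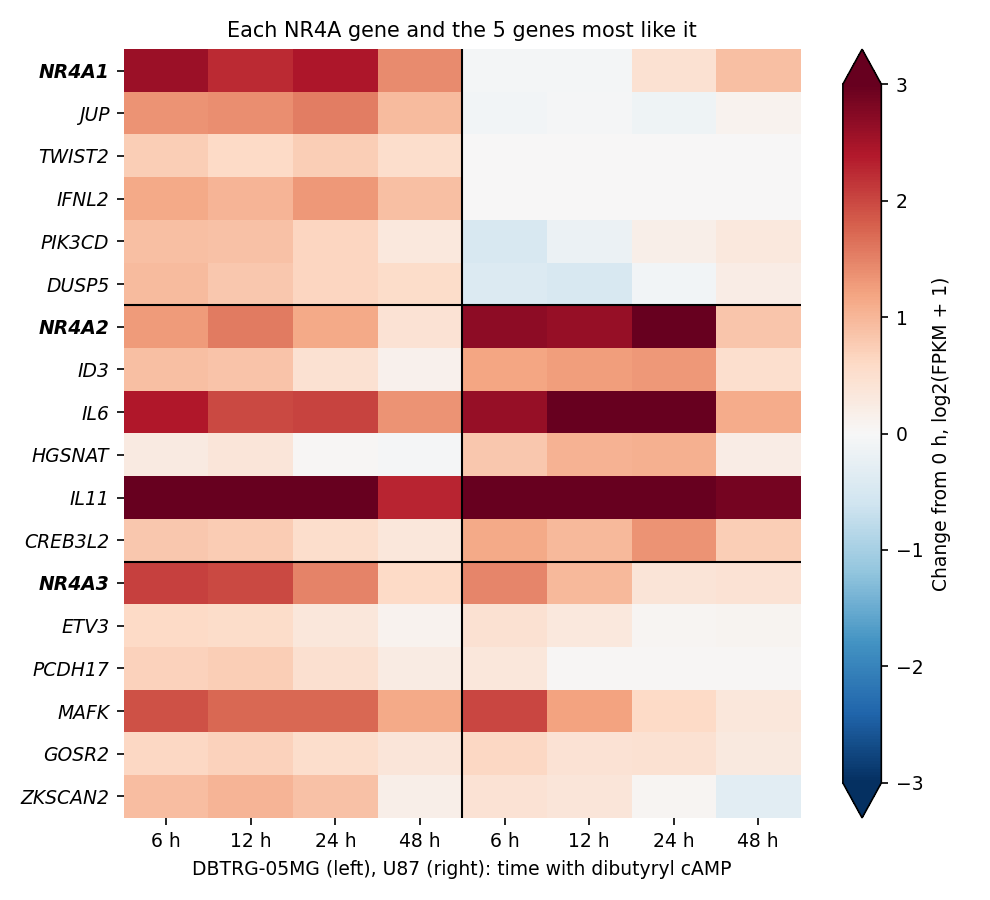
Change from 0 h on the log2(FPKM + 1) scale (color, saturated at 3 on either side) for each NR4A gene in bold and the 5 genes most like it, with the 4 treated times of DBTRG-05MG at left and of U87 at right. NR4A1 is dark in DBTRG-05MG and pale in U87 at 6 h, with changes of 2.57 and -0.07.

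The libraries held between 405316 and 487281 FPKM in all. The glioma stem cell gene SOX2 was at 23.0 to 36.6 FPKM in DBTRG-05MG and listed at 0 in U87. The astrocyte genes GFAP, S100B and AQP4 stayed at or below 0.508 FPKM in both lines. VIM, the vimentin gene, ranged over 865.5 to 2170 FPKM in DBTRG-05MG, with 5377 to 7246 FPKM in U87. Of the other glioma and glial markers, NES, FABP7 and CHI3L1 were higher in DBTRG-05MG. PDGFRA was higher in U87, and OLIG2 reached 2.01 FPKM there against at most 0.462 FPKM in DBTRG-05MG. The ranges of CD44 and EGFR overlapped between the lines. Of 16 markers of neurons, oligodendrocytes, blood cells, endothelium, epithelium and mural cells, 11 were under 1 FPKM in every library. The others were ACTA2, SNAP25, MBP, PDGFRB and SYT1. In DBTRG-05MG ACTA2 ranged over 30.4 to 43.8 FPKM, SNAP25 over 10.1 to 11.8 FPKM and MBP over 8.44 to 14.3 FPKM. In U87 these ranges were 14.7 to 33.9, 4.00 to 11.1 and 1.30 to 2.43 FPKM, and PDGFRB ranged over 4.49 to 10.5 FPKM. The summed level of the 16 markers was 57.8 to 73.4 FPKM in DBTRG-05MG, with 32.4 to 53.8 FPKM in U87. The part of these markers in the NR4A levels was not tested. Of 9 heat shock genes tested, none was 2-fold above 0 h at 6 h in either line, and their median was -0.18 in DBTRG-05MG, beside 0.02 in U87.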

How the data were processed

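Levels are the values the authors deposited for each gene and library, read as FPKM. The unit was inferred from the values, since the labels do not name it, and 0.002 was read as 0. The submitters' processing notes name HISAT, Bowtie2, RSEM and the build hg38. The log2(FPKM + 1) values of genes averaging 1 FPKM or more were fitted with limma (version 3.58.1, R version 4.3.3). Line and time entered as factors (4 residual degrees of freedom), and trends used the rank of time by line (6 residual degrees of freedom). Adjusted p is Benjamini-Hochberg over all genes tested, with a threshold of 0.05, two-sided. The pairing of times comes from the line itself. Named genes were the members, the 5 most alike per member, and per list the 3 with the largest mean change at 6 h and the 2 at 48 h, of which the text gives those a statement rests on, with RXR, CREB1, CREM, CRTC and SIK1 genes always. BDNF, PDE4B, PDE4D, EGR1, NR3C1, SOX2, GFAP, S100B and AQP4, and the further immediate early genes, were named after their values were seen. Members and gene lists were chosen with earlier results of these data known. Depth was approximated from 338 genes with 1 annotated transcript (quartiles 9.27 and 10.4 M fragments) and carries no counting interval. For each of these genes the lowest level above 0 over all libraries was taken as 1 fragment. The median over the genes was used for every library. Tests were checked on simulated data. Other pseudocounts, filters, scalings, fits and left-out libraries were tried as alternatives.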

Additional observations from a re-analysis of the deposited data

Results flagged for a closer look

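NR4A1 was above 0 h in DBTRG-05MG and marginally below it in U87 at 6 and 12 h, so that the signs differed between the lines. At 6 h the change from 0 h was 2.57 in DBTRG-05MG and -0.07 in U87, on the log2(FPKM + 1) scale. At 12 h it was 2.24 in DBTRG-05MG and -0.06 in U87. With 1 library per line and time the difference at a single time was not tested, and the U87 values are within the pooled SD of 0.58 of no change. Neither the difference in trend (adjusted p by limma 0.962) nor that in treated minus 0 h (adjusted p by limma 0.999) passed.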

How the results depend on the processing

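The NR4A1, NR4A2 and NR4A3 changes at each time kept their sign under every alternative run, and none passed; the lowest adjusted p by limma was 0.0905, for NR4A3 at 6 h with a pseudocount of 0.1. With libraries left out the 6 h changes ran over 0.32 to 2.18 for NR4A1, 1.38 to 2.56 for NR4A2 and 1.40 to 2.12 for NR4A3. At 12 h they ran over 0.16 to 2.02, 1.5 to 2.67 and 1.12 to 1.84, at 24 h over 0.52 to 2.38, 1.48 to 2.66 and 0.58 to 1.30, and at 48 h over 0.24 to 2.10, 0.05 to 1.23 and 0.15 to 0.87. A pseudocount of 0.1 gave 3.81 for NR4A3 at 6 h, against 1.76. Calls with time were few and unstable. At 6 h 1 gene passed, with 3 at a pseudocount of 0.1, 0 with no filter, 0 with median scaling and 0 to 2 with a library left out. At 12 h 1 passed, with 3 at that pseudocount, 3 with no filter, 0 with median scaling and 0 to 3. At 24 h 1 passed, with 2, 2 and 0 under these settings and 0 to 3. At 48 h 0 passed, with 0 to 2. Without the replicate block (the line left out of the fit) 0 passed at 6, 12 and 24 h. With time left out instead, no line difference of the NR4A genes passed. All later times together against 0 h, chosen after seeing the data, called 3 genes (DUSP1, PDE4B and PTGES). For differing trends 2 genes passed, with 1 at a pseudocount of 0.1, 5 with no filter, 7 with median scaling, 14 with hours, 0 with log2 hours, 0 for later times against 0 h, and 1 to 67 with a library left out, 67 without U87 at 0 h. Genes differing between lines numbered 6789, with 5855 to 6515 when a library was left out. The NR4A1 line difference also missed the threshold at a pseudocount of 0.1 (adjusted p = 0.0637), with no filter (0.101) and with upper quartile scaling (0.0743). Trend differences, none of which passed, turned sign for NR4A1 with median scaling (-0.041), upper quartile scaling (-0.0012) and hours (-0.0124), and ranged over -0.56 to 0.46 with libraries left out. They turned for NR4A2 with hours (9.02e-05; -0.82 to 0.59 with libraries left out) and for NR4A3 with hours (-0.00084; -0.46 to 0.46). CTGF had -0.21 for all later times, and IL8 at 48 h had -0.0060 without U87 at 0 h, where 1 library decides the sign, to 2.39 with another library left out. The cause of these moves was not tested. Depth limits NR4A2 and NR4A3 at 0 h, with about 9.5 fragments (2.4 to 20.7) for NR4A2 and 5.5 (3.0 to 7.4) for NR4A3 in DBTRG-05MG.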

Other observations

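Values of further nuclear receptor genes follow. They were picked after their values were seen, none passed limma at 6 or 48 h, and no difference between the lines was tested for them. NR3C1, the glucocorticoid receptor gene, stood at 13.0, 19.2, 17.6, 18.9 and 14.4 FPKM in DBTRG-05MG and at 10.4, 25.8, 18.2, 14.7 and 11.2 FPKM in U87 from 0 to 48 h, so that both lines were near their 0 h level at 48 h. RARB, a retinoic acid receptor gene, was at 5.29 FPKM at 6 h against 10.5 FPKM at 0 h in DBTRG-05MG, and at 2.19 FPKM against 1.07 FPKM in U87. RORA, a receptor of the circadian clock, was at 0.200 FPKM at 6 h against 0.645 FPKM at 0 h in DBTRG-05MG, and at 8.86 FPKM against 4.13 FPKM in U87. NR1D1 was lower at 6 h than at 0 h in both lines, at 59.0 against 92.5 FPKM in DBTRG-05MG and 17.9 against 28.0 FPKM in U87, and higher at 48 h, at 134.5 and 58.0 FPKM. ESRRA, an orphan receptor gene of mitochondrial metabolism, was at 42.1 FPKM at 24 h against 23.9 FPKM at 0 h in DBTRG-05MG, and at 16.1 FPKM against 13.2 FPKM in U87.

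Some reported NR4A targets and early genes, also picked after their values were seen, differed in their starting levels. SPP1, the osteopontin gene and a reported NR4A target, ranged over 1516 to 1901 FPKM in the 5 DBTRG-05MG libraries and stood at 11.7 to 23.7 FPKM in U87. ALDH1A1, another reported target, was at 39.7 FPKM at 48 h against 20.4 FPKM at 0 h in DBTRG-05MG, and at 0.206 against 0.0834 FPKM in U87. EN1, a homeobox gene of midbrain dopamine neurons, was at 4.07 to 8.07 FPKM in DBTRG-05MG and listed at 0 in U87. EGR3, a further immediate early gene, was at 2.27 FPKM at 6 h against 0.375 FPKM at 0 h in DBTRG-05MG, and at 0.107 against 0.0877 FPKM in U87, the side on which NR4A1 also stood higher.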
